A study of Mus musculus with 12 samples.

Results

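Olfm2, Cxcr6, Acsbg1, Cmah and Klhl1 are 5 of the 25230 genes counted by RNA-seq in mouse mesangial cells (MMC), and were taken by symbol because TGF-β raised them from near-zero counts. Reads on 18565 of the 25230 genes were found in at least 1 library, among them all 5. They were chosen by their counts in the TGF-β and control libraries of both genotypes, so their rise with TGF-β is given below as a description and without a test. The comparison of the genotypes under one condition did not choose them and was tested, on the same libraries. In SD this comparison rests on the low counts for which they were chosen.

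MMC are the contractile cells that hold the capillaries of the glomerulus together. Primary cultures were made from glomeruli of wild-type (WT) mice and of mice of the lncMGC-KO5 line, which descends from a Cas9-edited C57BL/6J embryo and lacks a short piece at the transcription start site of lncMGC on both alleles. lncMGC is the long non-coding RNA that hosts the miR-379 cluster, and the study asked what its loss changes in the response to TGF-β. The cells of both genotypes were grown in medium with serum and then had their serum withdrawn (SD) or received TGF-β (10 ng/ml), with a time of 24 h given for all of them, which makes 3 libraries each of WT-SD and WT-TGF and of KO-SD and KO-TGF. The edited cells stand for 1 line. The age and number of mice behind the libraries, and whether the TGF-β-treated cells were also kept without serum, are not given in the sources used here, so p-values measure the spread between these libraries, which may be technical.

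The 5 genes have different functions. Olfm2 encodes olfactomedin 2, a secreted glycoprotein known from the brain and retina and from TGF-β-driven smooth muscle differentiation. Cxcr6 encodes the receptor of the chemokine CXCL16 and is best known from T and natural killer T cells. Acsbg1 encodes the bubblegum acyl-CoA synthetase, which activates long and very long fatty acids and is known from brain, adrenal gland and testis. Cmah encodes the hydroxylase that turns CMP-N-acetylneuraminic acid into CMP-N-glycolylneuraminic acid, the donor from which one of the common sialic acids of mouse glycoproteins is made. Klhl1 encodes a kelch-like protein known from neurons, a family in which many members bind substrates for the CUL3 ubiquitin ligase. TGF-β signals through receptor kinases that activate SMAD2 and SMAD3, which enter the nucleus and bind short DNA motifs, and in MMC it is known for raising extracellular matrix and contractile genes.

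The genes lie on 3 chromosomes in mm10 (positions of RefSeq genes in GRCm38.p6, the same assembly). Olfm2 is at chr9:20667690-20746333 on the minus strand, Acsbg1 at chr9:54604886-54661885 on the minus strand and Cxcr6 at chr9:123806477-123811754 on the plus strand. Cmah is at chr13:24327404-24477289 on the plus strand, and Klhl1 is at chr14:96105265-96519034 on the minus strand. The promoter table from RefSeq (GRCm38.p6) held all 5 genes, with 8 start sites in all. Since these genes rose together, the 250 bases before the outermost start site of each are shown, 5′ to 3′ on the strand of the gene. They are chr9:20746297-20746546 for Olfm2, chr9:123806227-123806476 for Cxcr6, chr9:54661886-54662135 for Acsbg1, chr13:24327154-24327403 for Cmah and chr14:96519035-96519284 for Klhl1. Capitals mark CAGAC or its reverse complement GTCTG, the short motif that SMAD proteins bind.
Olfm2: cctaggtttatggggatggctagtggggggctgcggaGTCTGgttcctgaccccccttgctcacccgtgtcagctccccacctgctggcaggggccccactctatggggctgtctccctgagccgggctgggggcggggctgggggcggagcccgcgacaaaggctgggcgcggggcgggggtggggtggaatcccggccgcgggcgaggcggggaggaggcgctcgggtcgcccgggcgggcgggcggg
Cxcr6: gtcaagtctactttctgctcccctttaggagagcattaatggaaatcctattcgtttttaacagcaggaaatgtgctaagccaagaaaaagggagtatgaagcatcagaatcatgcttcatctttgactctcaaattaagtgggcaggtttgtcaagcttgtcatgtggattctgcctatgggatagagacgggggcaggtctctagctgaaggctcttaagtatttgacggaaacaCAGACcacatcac
Acsbg1: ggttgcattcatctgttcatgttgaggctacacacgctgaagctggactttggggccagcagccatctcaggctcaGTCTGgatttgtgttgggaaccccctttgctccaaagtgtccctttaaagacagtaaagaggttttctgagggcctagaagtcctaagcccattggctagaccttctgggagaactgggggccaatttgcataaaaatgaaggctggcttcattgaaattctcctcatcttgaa
Cmah: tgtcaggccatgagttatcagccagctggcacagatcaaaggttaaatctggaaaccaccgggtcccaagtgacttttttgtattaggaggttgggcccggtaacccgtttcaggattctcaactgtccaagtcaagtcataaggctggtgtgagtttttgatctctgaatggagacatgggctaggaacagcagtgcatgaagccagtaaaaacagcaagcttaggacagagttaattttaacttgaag
Klhl1: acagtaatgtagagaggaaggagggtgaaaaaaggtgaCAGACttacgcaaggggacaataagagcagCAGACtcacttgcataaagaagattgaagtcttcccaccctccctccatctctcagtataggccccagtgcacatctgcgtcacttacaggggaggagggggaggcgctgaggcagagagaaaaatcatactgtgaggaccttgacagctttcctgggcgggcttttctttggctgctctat
This motif was in 4 of these 5 windows, in all but that of Cmah, and in 42.2% of 32851 windows of the same length before all start sites in the table. In Klhl1 it occurred 2 times, and in Cxcr6 its first base was 13 bases before the start. The second start site of Cmah, 87718 bases downstream, had it once. The window of Olfm2 had a GC content of 76.0% against a median of 52.4% over all windows, and those of the other genes had between 43.6% and 50.8%. On either strand, TGANTCA (AP-1, in 6.75% of all windows), GTCTAGAC (a palindrome of the SMAD motif, in 0.167%), GGAATG (TEAD, in 12.6%), TATAAA (in 12.4%) and the CArG box (in 1.47%) matched none of the 8 windows of these genes. CACCTG (17.2% of all windows) matched at 2 of the 3 starts of Olfm2, and GGCGCC (9.59%) and TGACGTCA (1.55%) matched at the innermost of them. The matches do not overlap, and a match is a run of letters, not a measured site.

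The libraries had between 19898050 and 22827706 counts on genes, and levels are given as CPM, the counts relative to a library size that was scaled by the trimmed mean of M values (TMM). As the limit of detection 3 counts were used (the floor), which correspond to 0.128 to 0.163 CPM. lncMGC is not among the counted genes, so its deletion could not be checked in these counts, and KO stands below for the libraries labelled lncMGC knockout. Mirg, a transcript that overlaps the 3′ part of lncMGC, had 47 to 59 counts in WT-SD and 73 to 80 in WT-TGF. It had 72 to 89 counts in KO-SD and 68 to 87 in KO-TGF. In SD Mirg was higher in KO by 0.68 on the log2 scale (edgeR's quasi-likelihood test, FDR = 6.51e-05). With TGF-β its difference was 0.26 (FDR = 0.145). The study reports significantly lower Mirg in lncMGC-KO5 than in WT MMC by RT-qPCR, which these counts do not show. The reason for this discrepancy was not tested. The summed CPM of 10 markers of mesangial and smooth muscle cells was 4382 to 4548 in WT-SD and 8799 to 9034 in WT-TGF. It was 7382 to 7426 in KO-SD and 14844 to 15031 in KO-TGF. Of the 10, 9 were above the floor and Thy1 was at or under it. Des, also on this list, was lower in KO, at 7.53 CPM in WT-SD and 0.530 in KO-SD. Podocyte markers summed to 541 to 551 CPM in WT-SD and 297 to 302 in KO-SD. Those of tubular cells summed to 45.4 to 48.2 and 18.2 to 20.2 CPM, and those of glomerular endothelial cells to 32.4 to 33.0 and 17.3 to 18.6. Of 13 markers of T and natural killer cells, at least 11 were at or under the floor in every group, and Cd3d, Cd3e, Cd3g and Cd8a had no count. Of 12 macrophage markers, 11 were above the floor in WT, with a summed CPM of 17.5 to 30.3, and 3 to 4 in KO, with 1.13 to 2.71. The sum of 10 neuron markers was 17.7 to 19.7 CPM in WT-SD and 80.1 to 83.5 in WT-TGF, and 22.0 to 26.3 in KO-SD and 97.8 to 106 in KO-TGF. Tubb3 made up most of it, at 11.3 CPM in WT-SD and 72.6 in WT-TGF, while Snap25 and Dcx had no count. The part of other cell types in the results below was not tested.

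All 5 genes were under 1 CPM in each SD library and at 2.01 CPM or more in each TGF-β library. Most of them did not start from nothing: of the 10 SD groups of the 5 genes, only Cxcr6 in WT and Klhl1 in KO had every library at 3 counts or fewer, and none had 0 in all libraries. The rise is therefore given as the ratio of summed counts with its exact 95% binomial interval, which covers counting error only. In bulk RNA, more cells with a transcript and more RNA per cell cannot be told apart. With TGF-β, 4 of the 5 genes differed between KO and WT at FDR <5% (edgeR's quasi-likelihood test, Benjamini-Hochberg adjusted over all genes), of which Olfm2, Acsbg1 and Cmah were higher in KO and Klhl1 was lower, while 39.0% of all 18565 genes differed (18.7% higher and 20.3% lower). The share of 39.0% includes genes with few reads, in which less can be called. Of 12384 genes with CPM >1 in at least 3 libraries, 6891 differed with TGF-β. In SD only Cxcr6 differed, against 41.3% of all genes. The 5 genes were chosen for low counts in SD, which limits what can be called there, so this share is no yardstick for them.

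**Figure D1:**
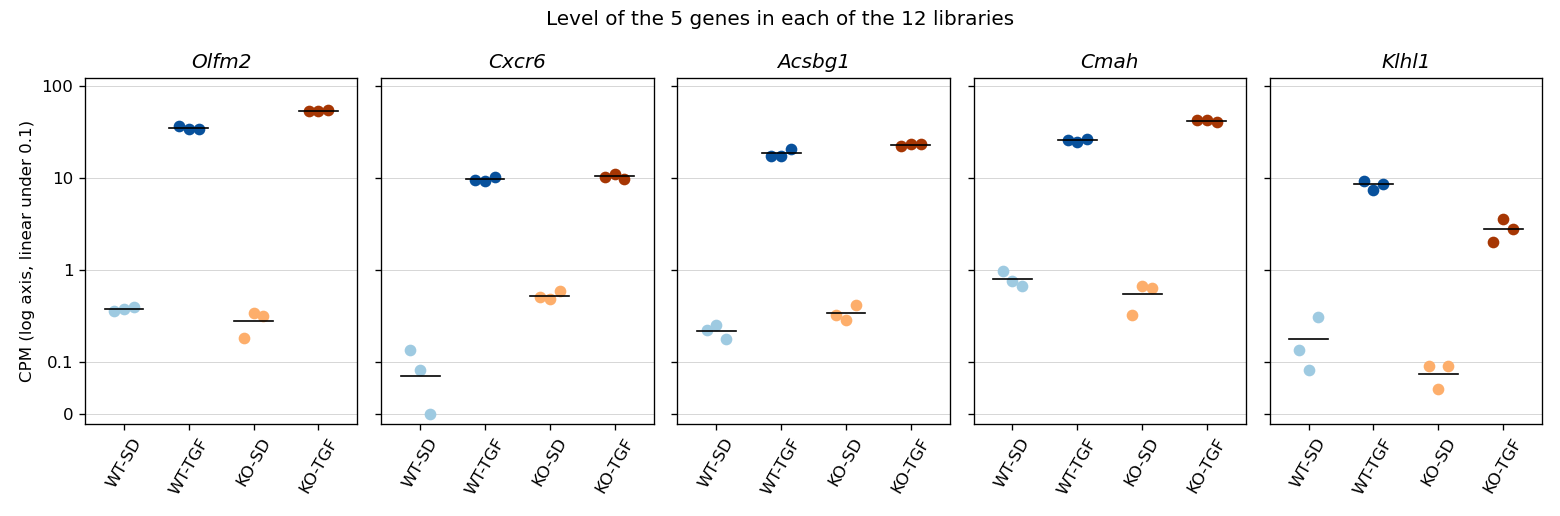
CPM (y axis, logarithmic, linear under 0.1) of the 5 genes in each library of the 4 groups (x axis). Points are libraries and bars are group means. Every SD library lies under 1 CPM and every TGF-β library above 2, with Klhl1 alone lower for KO-TGF than for WT-TGF.

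Per exon length, Olfm2 had the highest level of the 5 genes after TGF-β. Its counts were 8, 9 and 9 in the WT-SD libraries, 775, 757 and 685 in WT-TGF, 4, 7 and 7 in KO-SD and 971, 996 and 1023 in KO-TGF. The KO-TGF libraries were all above the WT-TGF libraries, and the KO-SD libraries were all below the WT-SD libraries. The mean level went from 0.381 ± 0.0224 CPM (standard deviation, n = 3, as for all values with ±) to 34.9 ± 1.63 CPM in WT, a ratio of 91.4 (62.2 to 140). In KO it went from 0.282 ± 0.0847 CPM to 53.6 ± 0.913 CPM, a ratio of 191 (121 to 323). In KO-TGF Olfm2 was higher than in WT-TGF by 0.62 on the log2 scale (SE 0.0525, FDR = 4.79e-31), which is 1.54 times. In SD the difference was -0.43 (SE 0.426, FDR = 0.483), from 18 counts against 26 in all, so that a lower start in KO was not detectable at this depth.

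The family and the pathway of Olfm2 did not move as 1 group. Of the 12 other genes with an olfactomedin domain or close relatives, 4 were higher, 4 lower and 4 neither in WT-TGF against WT-SD, with a median log2 fold change of -0.17 against 0.00 for all genes, of which 25.9% were higher and 25.8% lower. Scaled by library size alone, 2 were higher and 4 lower. Olfm1, the closest relative named here, fell in WT (34.1 to 23.4 CPM) and in KO (27.3 to 16.0 CPM) (FDR = 1.45e-20 and 3.16e-30). Olfml3, a secreted matrix protein, rose from 4.60 to 8.52 CPM in WT and fell from 4.31 to 2.67 CPM in KO (FDR = 1.91e-14 and 1.67e-05). Adgrl2, an adhesion receptor that carries the domain, fell from 103 to 44.7 CPM in WT. Gldn, also on this list, rose from near zero as well. It had no count in WT-SD and 5 to 8 in WT-TGF, and at most 1 in KO-SD and 17 to 24 in KO-TGF. In KO-TGF against WT-TGF, 4 of the 12 were higher, Gldn among them, and 2 lower (3 and 3 with scaling by library size alone). Of 14 smooth muscle contractile genes and SRF cofactors, the setting in which Olfm2 is known with TGF-β, 10 were higher and 2 lower in WT-TGF, with a median of 0.55. Actg2, an enteric smooth muscle actin, rose in WT (16.7 to 53.6 CPM) and in KO (78.5 to 308 CPM), and Cnn1, the actin-binding calponin, from 27.0 to 79.2 CPM and from 57.1 to 181 CPM. In KO-TGF against WT-TGF, 9 of the 14 were higher and 4 lower, beside 18.7% and 20.3% of all genes. Srf, the transcription factor of this program, was higher in KO-TGF by 0.29 (SE 0.0373, FDR = 1.44e-13). Myocd, its muscle cofactor, was lower by 2.28 on the log2 scale in KO-TGF (from 1.75 to 0.359 CPM, FDR = 4.36e-12).

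Cxcr6 had the fewest reads of the 5 genes in WT-SD, where 1 of the libraries had none. Its counts were 3, 2 and 0 in WT-SD, 202, 208 and 205 in WT-TGF, 11, 10 and 13 in KO-SD and 189, 205 and 185 in KO-TGF. The libraries of WT-TGF and KO-TGF overlapped, and every KO-SD library was above every WT-SD library. The ratio of TGF-β to SD counts was 132 in WT (56.2 to 408), from only 5 counts in SD. In KO it was 19.6 (13.9 to 28.6), from 34 counts. With TGF-β the level was 9.68 ± 0.426 CPM for WT and 10.4 ± 0.622 CPM for KO, a log2 difference of 0.10 (SE 0.0978, FDR = 0.472) that turned to -0.03 when libraries were scaled by their size alone. The counting interval of the KO-TGF to WT-TGF ratio ran from 0.957 to 1.21. In SD, Cxcr6 was higher in KO than in WT by 2.76 (SE 0.544, FDR = 1.97e-06), and the ratio of summed counts was 7.23 (2.81 to 23.7). Every WT-SD library was at or under the floor, so the size of this difference is poorly known. By counting error alone its lower bound is 2.81 times. The gene was also chosen for its low SD counts. By these counts the groups differed in SD and were not distinguishable with TGF-β. No test of the difference between the responses is given. Most markers of T and natural killer cells were at or under the floor. Their sum was 0.985 to 1.23 CPM in WT-SD and 0.743 to 1.52 in WT-TGF. In KO it was lower, at 0.322 to 0.678 in KO-SD and 0.160 to 0.432 in KO-TGF. The part of such cells in the level of Cxcr6 was not tested.

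Most other chemokine receptors had few or no reads. Among the 22 others on the list 15 had a read in any library, and in WT-TGF 2 were higher, 2 lower and 11 neither. Both that rose, Cxcr4 and Cx3cr1, had at most 12 and 15 counts in a WT-TGF library and at most 0 and 2 in KO-TGF. Ackr3, which scavenges the chemokine CXCL12, was the most abundant of them and fell in WT (107 to 21.9 CPM) and in KO (54.9 to 3.10 CPM). Cxcl16, which encodes the ligand of Cxcr6, was present in these cultures without TGF-β. It was at 84.6 (WT-SD) and 75.8 CPM (WT-TGF) (log2 fold change -0.16, FDR = 0.000181), and at 24.9 (KO-SD) and 23.0 CPM (KO-TGF). Under TGF-β the KO libraries had less of it by 1.72 on the log2 scale (SE 0.0499, FDR = 3.11e-257). The summed macrophage markers given above were lower in KO as well, and their part in the level of Cxcl16 was not tested. Adam10 and Adam17, the proteases that release CXCL16 from the cell surface, fell by 0.20 and 0.36 with TGF-β in WT.

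Acsbg1 changed least between the genotypes among the 4 genes that differed. Its counts were 5, 6 and 4 in WT-SD, 366, 390 and 415 in WT-TGF, 7, 6 and 9 in KO-SD and 407, 437 and 435 in KO-TGF. In CPM the KO libraries were above the WT libraries in both conditions, by a narrow margin. With TGF-β it reached 18.5 ± 1.81 CPM (WT) and 22.9 ± 0.785 CPM (KO). The ratio of TGF-β to SD counts was 83.7 in WT (50.5 to 150) and 66.9 in KO (44.0 to 107). In KO-TGF Acsbg1 was higher by 0.32 (SE 0.0711, FDR = 3.99e-05), and by 0.18 with scaling by library size alone (FDR = 0.0263). In SD the difference of 0.63 (SE 0.468, FDR = 0.313) was not beyond the counting error of 15 and 22 counts.

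Acsbg2, the other bubblegum synthetase, had no count in any library. Of the 11 other acyl-CoA synthetases for long and very long chains that were tested, 2 were higher in WT-TGF, 3 lower and 6 neither. Acsl3, which works at the endoplasmic reticulum and lipid droplets, rose in WT (16.6 to 38.7 CPM) and in KO (18.0 to 67.9 CPM). Acsl4, which prefers arachidonic acid, rose from 74.9 to 135 CPM in WT. Acsl1, a major synthetase of fat and heart, fell in WT (64.2 to 37.8 CPM) and in KO (33.8 to 12.4 CPM). In WT the largest of these changes was that of Acsl3, 1.22 on the log2 scale, beside the ratio of 83.7 for Acsbg1.

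Cmah had the most reads of the 5 genes in WT-SD. Its counts were 22, 18 and 15 in WT-SD, 547, 543 and 527 in WT-TGF, 7, 14 and 14 in KO-SD and 778, 792 and 755 in KO-TGF. The KO-SD libraries were all below the WT-SD libraries in counts, with CPM that overlapped, and the KO-TGF libraries were all above the WT-TGF libraries. The level went from 0.807 ± 0.161 to 25.5 ± 0.978 CPM in WT, a ratio of 31.5 (24.1 to 42.0). In KO it went from 0.548 ± 0.196 to 41.7 ± 1.35 CPM, a ratio of 76.4 (54.8 to 110). In KO-TGF Cmah was higher than in WT-TGF by 0.71 (SE 0.0589, FDR = 1.95e-32). The response in KO minus that in WT was 1.27 on the log2 scale (SE 0.310), beside 1.06 (SE 0.432) for Olfm2 and -0.31 (SE 0.465) for Acsbg1. These differences are computed from the rise that chose the genes and are given without a test. They were not computed for Cxcr6 and Klhl1, which had an SD group at the floor.

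Cmah acts on the activated sialic acid that the other genes of this pathway make and use. Of 8 genes of sialic acid synthesis, activation and transport, 3 were higher in WT-TGF, 2 lower and 3 neither. Nans and Cmas, which make N-acetylneuraminic acid phosphate and the CMP-sialic acid on which Cmah acts, rose from 32.3 to 50.6 and from 25.5 to 40.8 CPM in WT. In KO they rose from 45.5 to 63.7 and from 25.1 to 38.2 CPM. Npl, the lyase that breaks sialic acid down, fell in WT (6.54 to 1.76 CPM) and in KO (2.32 to 0.323 CPM). Of 18 sialyltransferases, which move sialic acid onto glycans, 6 were higher, 5 lower and 7 neither in WT-TGF, while KO-TGF against WT-TGF had 3 higher and 10 lower, beside 18.7% and 20.3% of all genes (1 higher and 11 lower with scaling by library size alone). St8sia2, which makes polysialic acid, rose in WT (97.8 to 307 CPM) and in KO (49.7 to 96.1 CPM). With TGF-β, KO had less St8sia2 than WT by 1.68 on the log2 scale and more Cmah. St3gal6 fell from 13.2 to 4.58 CPM in WT. Of the 2 sialidases tested, Neu3 was lower in WT-TGF by 0.20 (FDR = 0.0181), a call that was lost in DESeq2 (adjusted p = 0.0786).

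Klhl1 was the only gene of the 5 that was lower in KO with TGF-β. Its counts were 3, 2 and 7 in WT-SD, 197, 166 and 175 in WT-TGF, 2, 1 and 2 in KO-SD and 37, 67 and 52 in KO-TGF. Every KO-TGF library was far below every WT-TGF library, and the SD libraries of the genotypes overlapped. With TGF-β it reached 8.48 ± 0.965 CPM (WT) and 2.80 ± 0.806 CPM (KO). Between the KO-TGF libraries the coefficient of variation was 28.8%, of which counting error alone would give 13.9%. The ratio of TGF-β to SD counts was 48.1 in WT (27.3 to 93.6) and 35.9 in KO (15.1 to 112), the latter from 5 counts in SD. In KO-TGF Klhl1 was lower by 1.60 on the log2 scale (SE 0.135, FDR = 8.93e-31), which is a ratio of 0.331 (0.275 to 0.396). The study picked this gene out of the same libraries, so its direction here is not independent evidence. It also shows chromatin accessibility and histone acetylation at Klhl1 from other libraries, which were not examined here. In SD the difference was -1.12 (SE 0.703, FDR = 0.213).

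Of the 37 other kelch-like genes tested, 10 were higher, 11 lower and 16 neither in WT-TGF, with a median log2 fold change of 0.00. With scaling by library size alone, which moved the median of all genes by -0.19, 4 were higher and 18 lower. Klhl33, about whose product little is known, rose in WT (0.959 to 15.6 CPM) and in KO (2.21 to 12.3 CPM). Klhl14 fell in WT (17.5 to 1.33 CPM) and in KO (11.5 to 0.449 CPM). Klhl4, a close relative of Klhl1, had no count in any library. In KO-TGF against WT-TGF, 3 of the 37 were higher and 12 lower, beside 18.7% and 20.3% of all genes, and 2 were higher and 23 lower with scaling by library size alone. Of the 4 core genes of the CUL3 ligase, 3 were higher in WT-TGF by at most 0.45 on the log2 scale. Nedd8, the modifier that activates the ligase, rose from 44.7 to 60.9 CPM, and Cul3 itself was at 186 (WT-SD) and 194 CPM (WT-TGF) (FDR = 0.0784), a difference that turned to -0.13 with scaling by library size alone.

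**Figure D2:**
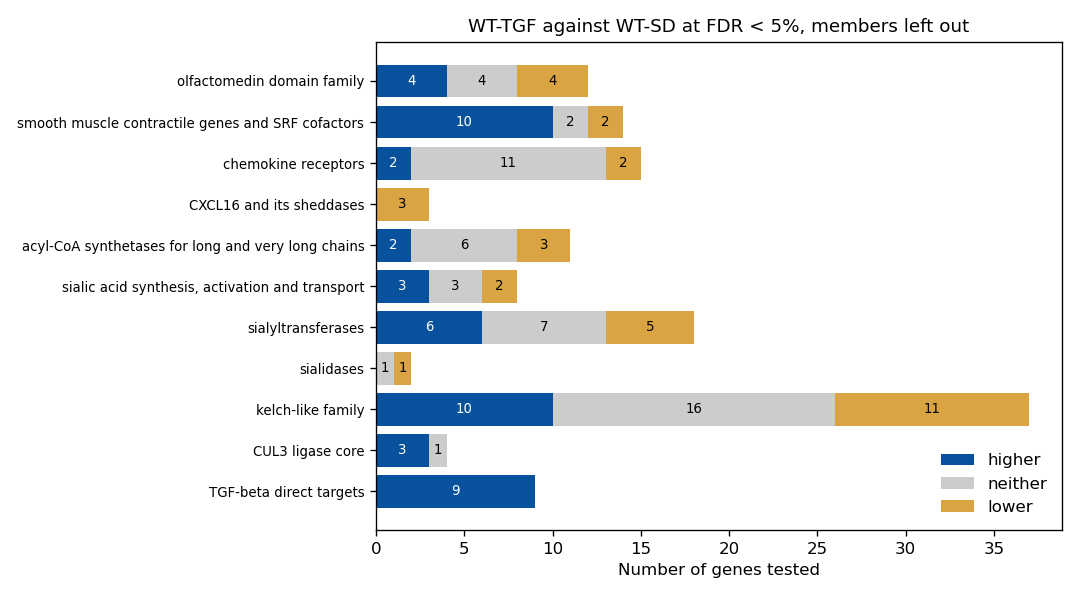
Number of genes (x axis) of each list that were higher, lower or neither at FDR <5% in WT-TGF against WT-SD, with the 5 genes themselves left out. Of the lists with more than 4 genes, only the smooth muscle list and the list of direct TGF-β targets had far more genes higher than lower.

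As a reference for the treatment, all 9 direct TGF-β target genes tested were higher in WT-TGF. Pmepa1, a feedback inhibitor of the pathway, rose in WT (168 to 1043 CPM) and in KO (193 to 954 CPM). In KO, where 23.8% of all genes were higher with TGF-β, 8 of the 9 were higher and Tgfbi, a matrix protein, was lower, at 4.87 (KO-SD) and 3.89 CPM (KO-TGF). In DESeq2 the lower value of Tgfbi did not pass (adjusted p = 0.222).

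**Figure D3:**
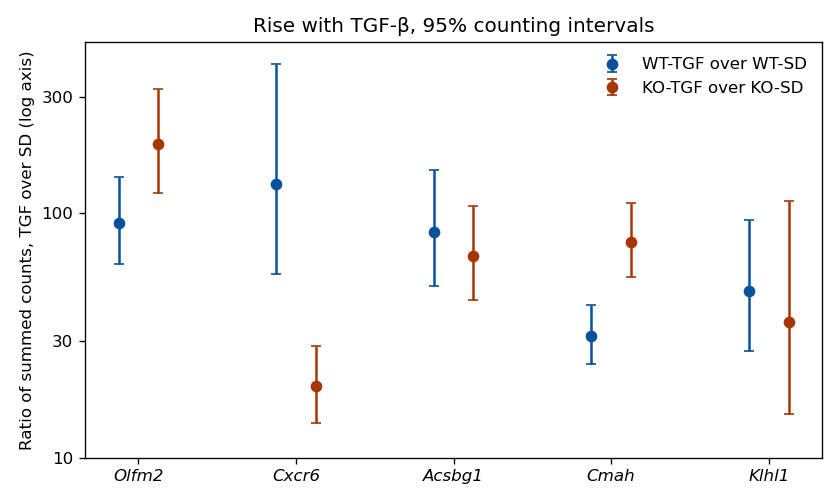
Ratio of summed counts of 3 TGF-β libraries to 3 SD libraries (y axis, logarithmic) for the 5 genes in WT and KO, with exact 95% counting intervals as bars. The ratio is higher in WT for Cxcr6, Acsbg1 and Klhl1, and higher in KO for Olfm2 and Cmah. The bars cover counting error only, and Cxcr6 in WT rests on 5 SD counts. No test of the difference between the genotypes in this ratio is given, because the genes were chosen on the rise.

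Divided by exon length (RPKM), the order of the levels was Olfm2, Acsbg1, Cxcr6, Cmah and Klhl1 with TGF-β in both genotypes. In WT-TGF the mean RPKM was 13.1 for Olfm2, 5.12 for Acsbg1, 5.01 for Cxcr6, 2.39 for Cmah and 1.28 for Klhl1. Acsbg1 (4.81 to 5.70 RPKM) and Cxcr6 (4.83 to 5.26 RPKM) overlapped there, and the other neighbors in this order did not. In KO-TGF the means were 20.1, 6.37, 5.38, 3.91 and 0.421 RPKM, and no neighbors in the order overlapped. In SD all libraries were at 0.310 RPKM or less for each gene. The order of the means there was Olfm2, Cmah, Acsbg1, Cxcr6 and Klhl1 in WT and Cxcr6, Olfm2, Acsbg1, Cmah and Klhl1 in KO. Cxcr6 thus moved from the fourth place in WT-SD to the top in KO-SD. The KO-SD libraries of Cxcr6 (0.251 to 0.309 RPKM) did not overlap with those of any other gene of the 5.

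Because the effect was measured on counts of very different size, the rise is also given as a difference. Olfm2 gained 34.5 CPM in WT and 53.3 CPM in KO, Cmah 24.6 and 41.2 CPM, and Acsbg1 18.2 and 22.6 CPM. Cxcr6 gained 9.61 and 9.86 CPM, and Klhl1 8.30 and 2.72 CPM. On this scale Cxcr6 rose by almost the same amount in both genotypes, although its ratio was 132 in WT and 19.6 in KO.

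**Figure D4:**
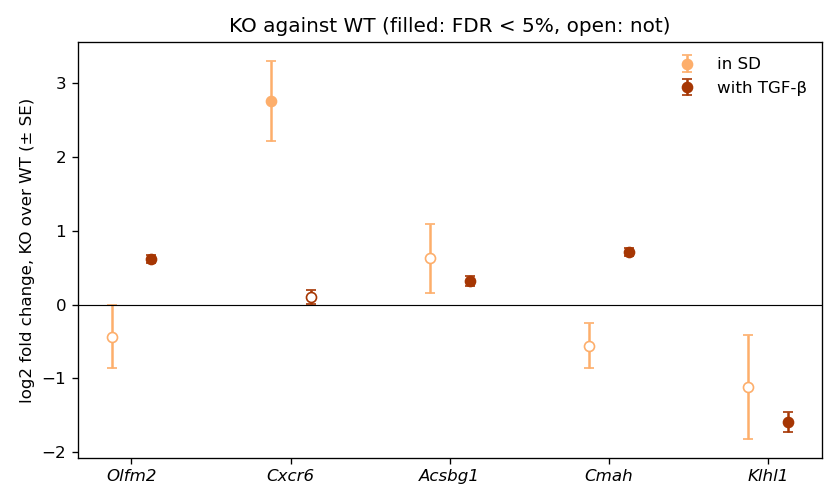
Log2 fold change of KO over WT (y axis) for the 5 genes (x axis), in SD and with TGF-β. Points are estimates from edgeR, bars are ± SE, and filled points passed FDR <5%. In SD only Cxcr6 passed, at 2.76, a size that is poorly known because its WT-SD libraries had 3 counts or fewer. With TGF-β all but Cxcr6 passed, from -1.60 for Klhl1 to 0.71 for Cmah.

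The scaling of the libraries bears on these differences. When TMM was replaced by library size alone, the median log2 difference between KO-TGF and WT-TGF over all genes moved from 0.00 to -0.14, and 22.1% of the genes called were higher in KO against 48.0% with TMM and 54.4% in DESeq2. Under that scaling Olfm2 was higher in KO-TGF by 0.49, Acsbg1 by 0.18 and Cmah by 0.58, and Klhl1 was lower by 1.73, and all 4 still passed FDR <5%.

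Genes with a rise of this kind were few. By the floor of 3 counts, 64 genes had no SD library above it and all TGF-β libraries above it in WT, 52 in KO and 19 in both, and the class held Cxcr6 in WT and Klhl1 in KO. The reverse, from above the floor in every SD library to 3 counts or fewer in every TGF-β library, held for 131 genes in WT, 222 in KO and 28 in both. Of the 19 genes that crossed the floor in both genotypes, Adamtsl2, which encodes a matrix protein of microfibrils, had the most CPM in WT-TGF, 8.03, with 4.05 CPM in KO-TGF. Il21r, the interleukin-21 receptor, followed with 1.54 and 0.753 CPM. Odaph was at 1.22 and 1.56 CPM, and Gucy1b2, a guanylate cyclase subunit with no count in SD, was at 1.14 and 1.60 CPM. Akr1c19, Pthlh, Arg1 and Pmp2 were each at 1.02 CPM or less in WT-TGF. Pthlh encodes the parathyroid hormone-related peptide and Arg1 the liver arginase.

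A wider class holds all 5 genes. In 19 genes the mean was under 1 CPM in both SD groups and at least 5 CPM in WT-TGF, limits that were set after the counts were seen. By CPM in WT-TGF, which does not correct for length, Olfm2, Cmah, Acsbg1, Cxcr6 and Klhl1 took places 1, 3, 4, 5 and 7 of the 19. The limit was set on WT-TGF alone, so the genes that differed in KO-TGF are not counted here. Ucp2, a mitochondrial uncoupling protein, took the second place and moved up with TGF-β in WT (0.715 to 27.5 CPM) and in KO (0.140 to 9.43 CPM). Prg4, the lubricating proteoglycan of joints, was higher in KO, with means of 6.23 (WT-TGF) and 18.1 CPM (KO-TGF). Shisa6 had means of 8.61 (WT-TGF) and 2.31 CPM (KO-TGF).

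**Figure D5:**
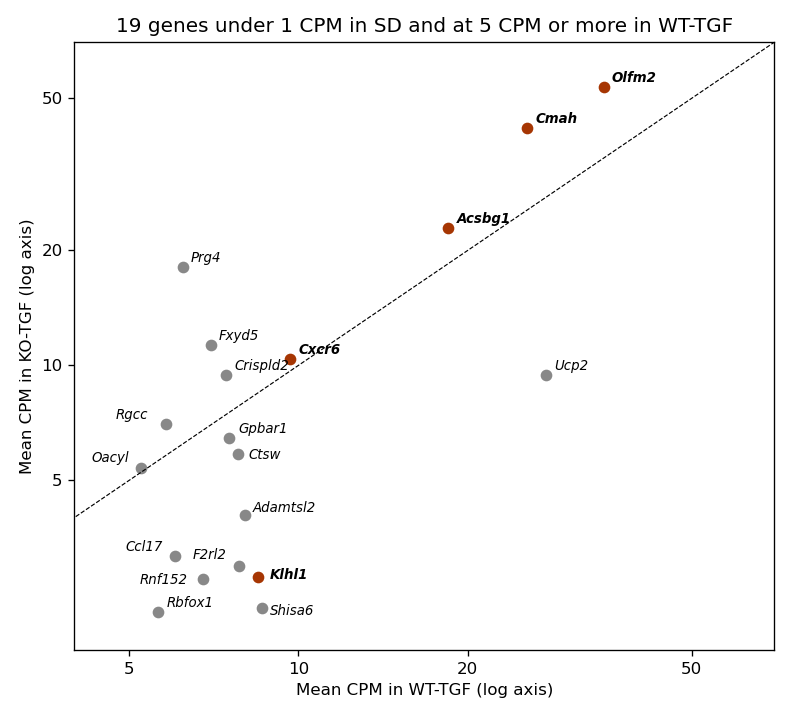
Mean CPM in KO-TGF (y axis) against mean CPM in WT-TGF (x axis), both logarithmic, for the 19 genes under 1 CPM in both SD groups and at 5 CPM or more in WT-TGF. The 5 genes are in color and bold, the others are gray, and the dashed line marks equal levels. Olfm2, Cmah and Acsbg1 lie above the line at the upper end, Cxcr6 on it and Klhl1 below it.

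The genes whose pattern over the 12 libraries was most like that of each gene were found by the root mean square difference of log2 CPM, after each gene's own mean was subtracted, among 12455 genes with at least 1 CPM in some group, the 5 genes left out. Of these, Il11, the cytokine interleukin-11, was nearest to Olfm2 (0.72), Acsbg1 (0.37) and Cmah (0.46). It moved up with TGF-β in WT (1.25 to 62.8 CPM) and in KO (1.25 to 56.4 CPM). Near to Cmah was also Aldh1a3 (0.54), which makes retinoic acid and moved up with TGF-β in WT (20.4 to 474 CPM) and in KO (6.996 to 406 CPM). Nearest to Cxcr6 were Fgf21 (0.58), Rgcc (0.63) and Gper1 (0.68). Like Cxcr6, Rgcc, a regulator of the cell cycle, started higher in KO, at 0.117 (WT-SD) and 0.745 CPM (KO-SD), and reached 5.82 and 7.03 CPM with TGF-β. Fgf21, a metabolic hormone, moved up with TGF-β in WT (0.0433 to 3.33 CPM) and in KO (0.266 to 7.62 CPM). Nearest to Klhl1 were F2rl2 (0.49), a thrombin receptor of the PAR family, Kcnk12 (0.61), a potassium channel, and Gpbar1 (0.64), a bile acid receptor. F2rl2 moved up with TGF-β in WT (0.218 to 7.85 CPM) and in KO (0.124 to 2.99 CPM). Among the 5 genes themselves the closest pair was Acsbg1 and Cmah (0.48) and the farthest was Olfm2 and Klhl1 (1.38).

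The neighbors of the 5 genes on the chromosome behaved differently from one gene to the next. On the 5′ side of Olfm2, 23717 bases away on the same strand, Col5a3, a fibrillar collagen, rose in WT (62.4 to 571 CPM) and in KO (100 to 1142 CPM). Like Olfm2, Col5a3 was higher in KO-TGF than in WT-TGF, by 0.999 on the log2 scale (SE 0.0249). Cxcr6 lies within Fyco1, which is on the opposite strand, at 141 (WT-SD) and 122 CPM (WT-TGF), and the reads were counted on the strand of each gene. The chemokine receptor genes on either side, Ccr9 and Xcr1, had no count in any library. Idh3a, a subunit of isocitrate dehydrogenase, ends 224 bases from the 3′ end of Acsbg1 on the opposite strand and rose in WT (52.0 to 82.0 CPM) and in KO (57.6 to 96.5 CPM). Dnaja4, a chaperone on the 5′ side of Acsbg1, was at 38.8 (WT-SD) and 41.3 CPM (WT-TGF) (FDR = 0.119). On either side of Cmah, Carmil1, an actin regulator, was at 38.1 (WT-SD) and 39.5 CPM (WT-TGF) (FDR = 0.421), and Ripor2 had at most 13 counts in a library. The gene nearest to the start of Klhl1, Dach1, a transcription cofactor 1267812 bases away, fell in WT (15.6 to 7.49 CPM) and in KO (8.62 to 2.55 CPM). Spertl on the other side of Klhl1 had no count.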

How the data were processed

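RNA-seq libraries were prepared from mRNA of WT and lncMGC-KO5 MMC, and 3 libraries per group were labelled as replicates. Single-end reads were aligned to mm10 with TopHat and counted on the strand of each RefSeq gene with HTSeq-count, per the submitters' processing notes and the study's methods. The values deposited by the authors are whole-number counts per gene, without normalization or filter. Reads outside annotated exons (10.3% to 15.4% of a library), reads with several alignments and reads on overlapping genes were left out of library sizes.

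Here all 18565 genes with a count entered edgeR 4.0.16 under R 4.3.3, with TMM scaling and 1 mean per group in a single fit of the 12 libraries, and were compared by its quasi-likelihood F-test. FDR is the p-value after Benjamini-Hochberg adjustment over these genes. The filter of the study (RPKM >1 in at least one library) was an alternative, since these genes would pass it only through the groups where they are high. Other alternatives were library size alone, DESeq2 1.42.0, CPM >1 in at least 3 libraries, a fit of the groups compared, a replicate block and each library left out. RPKM used exon lengths of GENCODE vM21. The biological coefficient of variation was 0.0271, and replicate libraries were farther apart than sampling noise (chi-square per degree of freedom 1.33 to 5.20), so none was taken for a copy. On simulated data (17910 genes, KO-TGF against WT-TGF), 92.0% of 50 genes lowered by 1 on the log2 scale and 100% of 50 raised by 1 were called. The changed genes were drawn from those above 1 CPM in WT-TGF. Smaller differences and the comparison in SD were not simulated. Genes named beside the 5 are, from lists written by hand, up to 4 genes per list past FDR <5% with TGF-β in WT and at least 1 CPM with the largest change, genes of the same pathway, the 3 nearest in pattern, the top of the class that crossed the floor, and chromosomal neighbors. Cxcr4, Cx3cr1, Tubb3, Gldn and the genes named in the class under 1 CPM were chosen after their values were seen. The genes and lists were chosen with earlier results of these data known. How far the rise in KO differed from that in WT was planned as a test and is given as a description, because the genes were chosen on the rise. A few genes that these rules would name are left out of the text.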

Additional observations from a re-analysis of the deposited data

How the results depend on the processing

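The call for each of the 5 genes between KO and WT, in SD and with TGF-β, kept its side of FDR <5% under all 18 alternatives. Leaving out each library in turn gave 4 genes called with TGF-β and 1 in SD each time, 6538 to 7471 of all genes in KO-TGF against WT-TGF (7246 with all libraries), 79 to 84 of the list genes with TGF-β in WT (82), 69 to 76 of them between KO-TGF and WT-TGF (75), and 76 to 91 genes crossing the floor in WT (64). The direction of Cxcr6 with TGF-β reversed to -0.0305 (FDR = 0.873) with scaling by library size alone. Over all alternatives the log2 difference between KO-TGF and WT-TGF ran from 0.49 to 0.66 for Olfm2, 0.18 to 0.40 for Acsbg1, 0.58 to 0.74 for Cmah and -1.82 to -1.41 for Klhl1, and that of Cxcr6 in SD from 2.22 to 3.43 (FDR up to 0.000331). The response difference of Cmah ran from 1.0 to 1.45 and that of Olfm2 from 0.83 to 1.20. The class under 1 CPM, set after seeing the data, held 19 genes against 64 by the floor, and differs from it in several limits at once. Lower limits against other floors were not computed, because no SD group was at 0 in all libraries. Same-numbered libraries correlated in their deviations from the group means by at most 0.0912, between groups that share a genotype or a condition. No pairing by replicate number was thus seen, but whether samples were handled in pairs cannot be told from this. A fit with the replicate block called 4 of the 5 genes with TGF-β, 1 in SD and 7286 of all genes. Depth limits the SD values, which rest on 5 to 55 counts per gene and group, and in SD a difference of -1.12 on the log2 scale (Klhl1) did not pass FDR <5%.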
